A study of Mus musculus with 28 samples.

Results

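Interleukin-2 (Il2), tumour necrosis factor (Tnf) and lymphotoxin alpha (Lta) were followed across 28 mouse gene arrays as cytokines that CD4+ T cells make again when their antigen receptor is restimulated. They are 3 of the 19938 genes measured, each read by the probe set that carried its symbol alone: 10497878 for Il2, 10450501 for Tnf and 10450508 for Lta. No gene of the 3 had a second probe set. The cells were CD4+ T cells of the strain BwTRP1 Rag1-/-, which carry a transgenic receptor for TRP1, a melanocyte protein, on a background that lacks Rag1. The arrays of each group had this origin in common. The cells were cultured for 7 days with irradiated C57/B6 splenocytes and TRP1 peptide. Th1 cultures received IL-12 and antibody to IL-4, whereas Th17 cultures received IL-1, IL-6, IL-21, TGFβ2 and antibodies to IL-2, IL-4 and IFN-γ, with IL-23 later. Medium with IL-2 was added to both during the culture. Cells marked by Thy1.2 were then transferred into B6.PL mice, which carry Thy1.1 and had been irradiated with 5 Gy, a sublethal dose, so that host cells remained. On day 5 or day 15 they were recovered from pooled spleens and inguinal lymph nodes by CD4 enrichment and a sort on Thy1.2. Each sample was divided, and antibodies to CD3 and CD28 restimulated 1 portion over 2 h. At day 5 there were 3 array numbers for Th1 and 3 for Th17, at day 15 there were 2 for Th1 and 4 for Th17, and on the day of transfer, day 0, there was 1 for each type. An array number holds 1 unstimulated and 1 restimulated array, although the labels do not say that equal numbers mark portions of 1 sample. They do not say either that numbers came from separate mice, and p-values then measure only the spread between these samples.

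IL-2 is the growth factor that activated CD4+ T cells release for themselves and their neighbours, and it acts through a receptor whose alpha chain, Il2ra, is itself induced by activation. TNF and lymphotoxin alpha are secreted ligands of the same family, share the receptors Tnfrsf1a and Tnfrsf1b, and are made quickly after the T cell receptor is engaged. Lymphotoxin alpha also joins lymphotoxin beta (Ltb) in a membrane complex that signals through Ltbr. Receptor signals reach these genes through the NFAT, AP-1 and NF-kappaB families of transcription factors, and CD28 signals stabilise their short-lived mRNAs.

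The promoters of Il2 and Tnf are shown because their rises on restimulation are the subject of what follows. Each is the stretch of 250 bases before the transcription start in RefSeq, build GRCm38.p6, minus strand, at chr3:37125955-37126204 for Il2 and chr17:35202008-35202257 for Tnf. Capitals mark matches to the motifs searched.
Il2: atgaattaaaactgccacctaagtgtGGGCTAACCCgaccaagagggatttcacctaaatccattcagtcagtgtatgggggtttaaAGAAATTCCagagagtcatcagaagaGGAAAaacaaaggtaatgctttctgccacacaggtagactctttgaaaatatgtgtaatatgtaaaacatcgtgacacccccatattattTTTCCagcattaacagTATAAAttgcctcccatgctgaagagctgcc
Tnf: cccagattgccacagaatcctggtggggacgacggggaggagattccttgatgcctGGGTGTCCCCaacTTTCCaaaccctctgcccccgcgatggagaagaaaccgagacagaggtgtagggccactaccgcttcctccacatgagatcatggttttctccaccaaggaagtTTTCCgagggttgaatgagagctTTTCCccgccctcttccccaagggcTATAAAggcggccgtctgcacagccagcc

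The motifs were searched on both strands, except for the TATA box, which was read on the gene's strand only. The core of NFAT sites, GGAAA, occurred 2 times in the Il2 window and 3 times in the Tnf window. Of 32851 promoter windows of the same length, 55.6% held it. A loose NF-kappaB pattern, GGG and CC separated by 5 bases of any kind, had 1 match in each window and was present in 45.8% of windows. The CD28 response element of Il2, AGAAATTCC, lay 163 bases before the Il2 start, had no match in Tnf and was found in 0.25% of windows. Both windows held a TATA box, TATAAA, 31 bases before the start in Il2 and 29 in Tnf, which 7.59% of windows shared. The AP-1 pattern TGANTCA, held by 6.75% of windows, had no match in either. A match describes letters and not binding. In the RefSeq gene order Ltb, Tnf and Lta stand side by side.

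Levels are log2 values, so a difference of 1 is a doubling, and levels of different probe sets are not compared with each other. The median of an array lay between 6.77 and 7.09. No detection calls were used, and a level below its array's median is not shown to be above background. The mean of 7 markers of CD4+ T cells lay between 12.05 and 12.55 on the 28 arrays, and that of 6 B cell markers between 5.86 and 6.52. The mean of 5 erythroid markers lay between 6.75 and 6.93 at day 5 and between 7.84 and 9.55 at day 15. The mean of 5 NK cell markers in unstimulated cells of day 15 was 6.63 to 7.18 in Th1 and 5.69 to 5.76 in Th17 cells. The mean of 17 myeloid markers was 7.33 to 8.45 in unstimulated Th17 cells of day 5, against 6.51 to 6.98 on the Th1 arrays after transfer. In restimulated Th17 cells of day 5 this myeloid mean was 6.75 to 7.96. In Th17 cells of day 15 it was 6.995 to 7.69 unstimulated and 6.86 to 7.34 restimulated. At day 0 it was 9.20 unstimulated and 8.82 restimulated in Th17 cells, and 7.22 and 6.92 in Th1 cells. How far other cells add to the levels of day 0 was not tested. In sorted bulk samples like these, fewer cells making an mRNA and less of it per cell cannot be told apart.

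Il2 was low at rest and was higher after restimulation for each of the 14 array numbers. In Th1 cells of day 5 the unstimulated levels were 6.15, 6.08 and 6.29 for numbers 1 to 3, and the restimulated levels were 11.73, 11.14 and 12.23. In Th17 cells of day 5 they were 7.52, 6.77 and 6.60 unstimulated and 11.66, 11.41 and 11.94 restimulated. Restimulated groups lay far above unstimulated ones, and both types reached the same range, while at rest Th17 number 1 stood highest. Of the 12 unstimulated arrays after transfer, 11 had Il2 below the array median. The rise, which is the restimulated minus the unstimulated level of a number, averaged 5.53 ± 0.44 (SD, n = 3) in Th1 cells and 4.71 ± 0.60 (SD, n = 3) in Th17 cells. Because the resting level is mostly not shown to be above background, these differences may understate the change, and no fold is given. Both passed limma's test with Benjamini-Hochberg adjustment (adjusted p = 9.06e-07 and 1.12e-05), and in both types only 1 gene of 19938 rose more.

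At day 15 the rise of Il2 differed widely between the Th17 array numbers. In Th1 cells the levels were 6.81 and 6.67 unstimulated and 12.37 and 11.00 restimulated, giving rises of 5.56 and 4.33. In Th17 cells the unstimulated levels were 6.85, 6.91, 6.59 and 6.78 for numbers 1 to 4. After restimulation they were 11.89, 8.32, 9.59 and 8.43. Number 1 reached the levels of day 5, whereas numbers 2 to 4 stayed below each restimulated array of day 5, and the unstimulated arrays were close together. The rises were therefore 5.04, 1.41, 3.00 and 1.65. In number 1 Il2 ranked 2nd of all genes by its rise, and in number 2 it ranked 134th. The mean rise was 2.78 ± 1.66 (SD, n = 4) in Th17 cells and 4.94 ± 0.87 (SD, n = 2) in Th1 cells, and both passed the test (limma, adjusted p = 0.000279 and 0.000128).

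**Figure D1:**
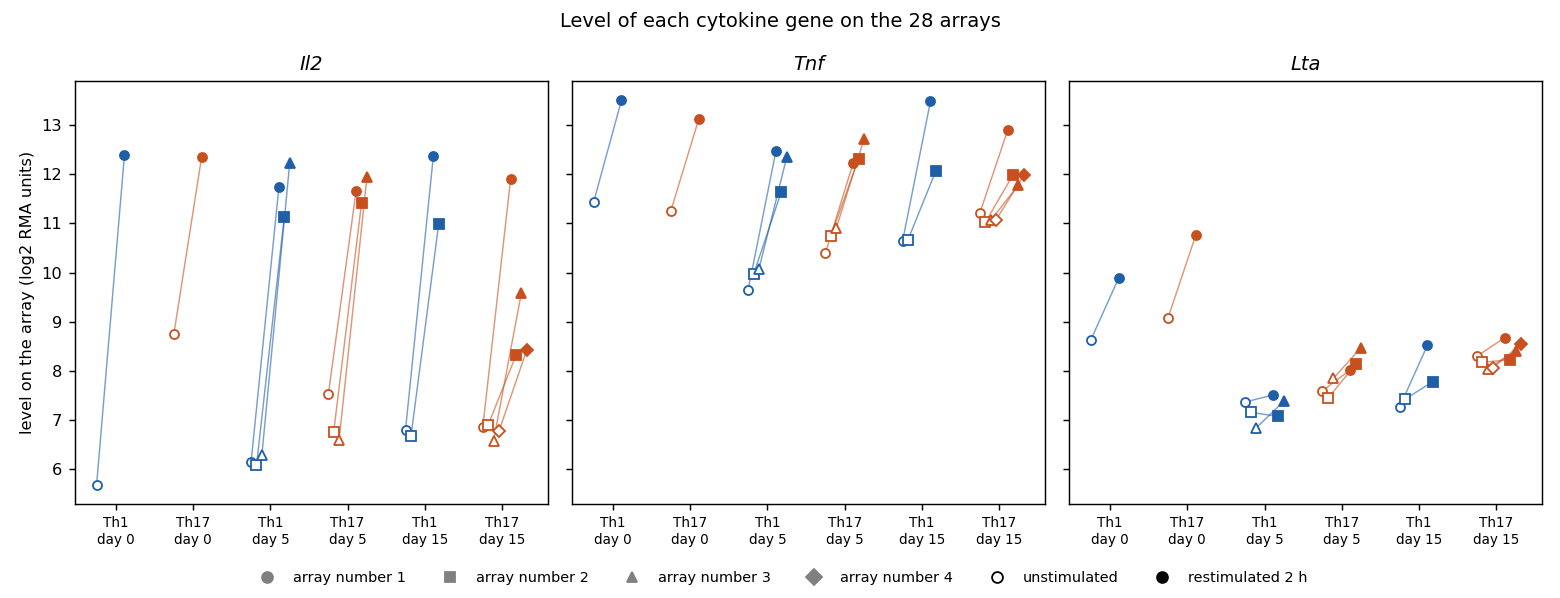
Log2 levels of Il2, Tnf and Lta (y axis, a separate panel for each gene) by type and day (x axis), each point an array, open unstimulated and filled restimulated, blue Th1 and orange Th17. Il2 of restimulated Th17 cells at day 15 runs from 8.32 to 11.89, while its unstimulated arrays lie between 6.59 and 6.91.

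The smaller rise of Il2 at day 15 in Th17 cells was not called as a change between days. The rise at day 15 minus that at day 5 was -1.93 (95% interval -3.50 to -0.36), and limma gave an adjusted p of 0.218. In Th1 cells the difference between days was -0.58 (95% interval -2.46 to 1.29; adjusted p = 1.00 by limma). None of the 3 genes was called for this change in either type. The share of all genes called was 1.17% in Th17 cells and 0.0251% in Th1 cells. At an unadjusted p under 0.05 by limma there was 1 of the 3 in each type: Il2 in Th17 cells and Lta in Th1 cells. Of all 19938 genes, 3160 had such a p in Th17 cells and 843 in Th1 cells. The Th17 value of Il2 depended on number 1 of day 15. Without its restimulated array the change was -2.71 (adjusted p = 0.00178 by limma), and without both of its arrays -2.68 (adjusted p = 0.0040 by limma). With arrays weighted by their scatter it was -2.38 (adjusted p = 0.0299 by limma).

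The restimulated level itself did pass the test. Il2 fell by 2.11 on the log2 scale from day 5 to day 15 in restimulated Th17 cells (limma, adjusted p = 0.00847), where 8.42% of all genes were called lower, although number 1 of day 15 lay inside the range of day 5. In restimulated Th1 cells the difference was -0.02 (adjusted p = 0.994 by limma). At day 15 restimulated Th17 cells had less Il2 than Th1 cells, with a difference of -2.13 (adjusted p = 0.0305 by limma; 2.98% of all genes were called lower), again with overlap through number 1. This call was lost in 9 of 18 alternative settings, among them leaving out Th1 number 1, which gave -1.44 (adjusted p = 0.367 by limma). At day 5 the same comparison gave -0.03 (adjusted p = 0.998 by limma).

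Erythroid markers moved with restimulation in the arrays of day 15. For the 4 Th17 numbers their mean differed by -1.53, -1.16, -0.64 and -0.96 after restimulation. There 5 of 5 markers were called lower (limma, adjusted p under 0.05), against 11.1% of all genes. For the Th1 numbers the mean differed by -0.51 and -0.65, and 3 of 5 markers were called lower, against 4.63% of all genes. Among the Th17 numbers, number 1 had the steepest fall and the highest rise of Il2. Number 2, with the next steepest fall, had the lowest rise of Il2, and number 3, with the shallowest fall, had the next highest rise. The cause of the spread between these numbers was not tested. With the erythroid mean as a covariate the rise of Il2 in Th17 cells at day 15 was 3.17 (SE 1.18) and no longer called (adjusted p = 0.135 by limma). The day 15 minus day 5 difference in restimulated Th17 cells was then -2.53 (adjusted p = 0.229 by limma). The erythroid means of these days did not overlap, so the covariate cannot be separated from the day. The SE of the rise without the covariate was 0.48, and this covariate was added after the data were seen.

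On the day of transfer, with 1 array per group and hence no test, Il2 was 5.69 in unstimulated Th1 cells and 12.38 after restimulation. Th17 cells had 8.75 and 12.35. The restimulated values were nearly equal and above the mean of each later restimulated group. The unstimulated Th17 value exceeded that of each unstimulated array after transfer, while the unstimulated Th1 value lay below its array median of 6.77 and is not shown to be above background. The differences between conditions were 3.60 in Th17 cells and 6.69 in Th1 cells, and they are not compared for that reason.

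**Figure D2:**
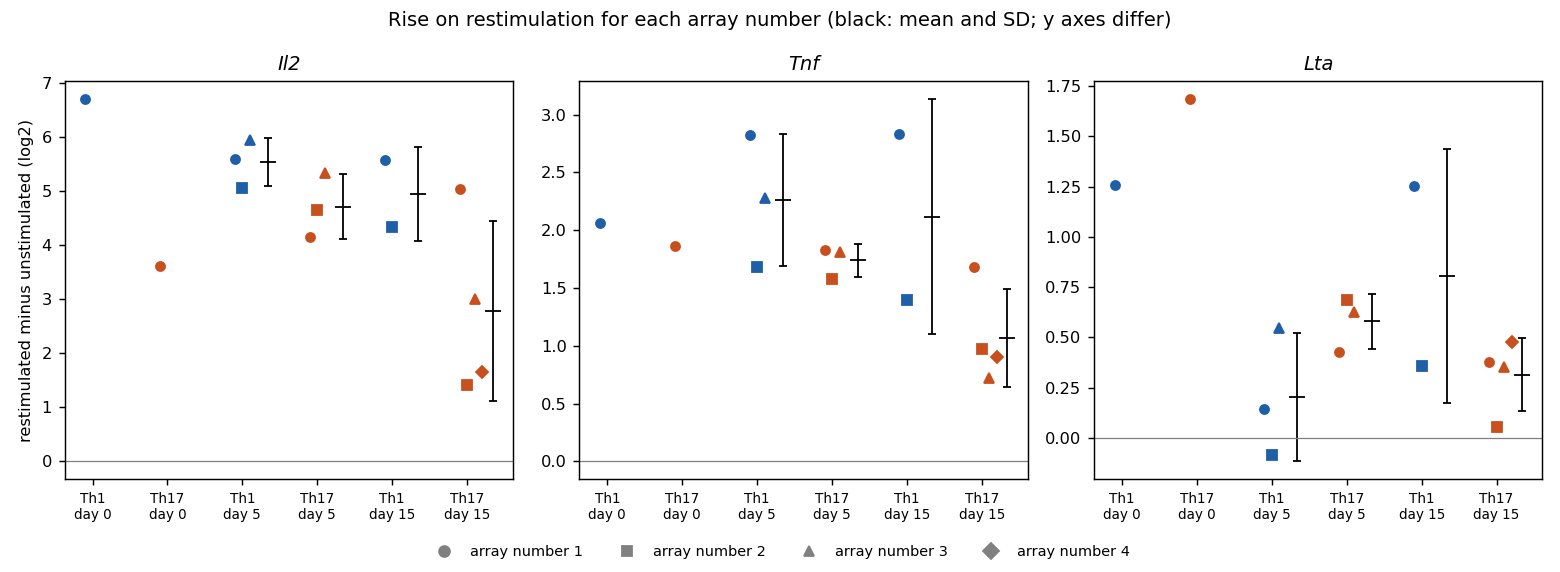
Restimulated minus unstimulated log2 difference (y axis) of Il2, Tnf and Lta for each array number (points) by type and day (x axis), blue Th1 and orange Th17, with the group mean as a bar where there is more than 1 number. The rise of Il2 in Th17 cells at day 15 spans 1.41 to 5.04, and the rise of Lta stays between -0.08 and 1.69.

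Tnf was already well above the array median at rest and was higher after restimulation for each of the 14 array numbers, by less than Il2. In Th1 cells of day 5 the levels were 9.65, 9.97 and 10.07 unstimulated and 12.47, 11.65 and 12.35 restimulated. In Th17 cells of day 5 they were 10.40, 10.74 and 10.90 unstimulated and 12.23, 12.32 and 12.71 restimulated. The unstimulated Th17 arrays lay above the unstimulated Th1 arrays, as they did for 9.74% of all genes. The rises averaged 2.26 ± 0.57 (SD, n = 3) in Th1 cells and 1.74 ± 0.14 (SD, n = 3) in Th17 cells, and both were called (limma, adjusted p = 1.49e-05 and 0.000402). Tnf ranked 32nd and 42nd of all genes by its rise.

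At day 15 Tnf was 10.64 and 10.67 in unstimulated Th1 cells and 13.48 and 12.07 after restimulation. In Th17 cells it was 11.21, 11.02, 11.06 and 11.07 unstimulated and 12.89, 11.99, 11.78 and 11.98 restimulated for numbers 1 to 4. Number 1 was the highest restimulated array in both types, and in Th17 cells the other 3 numbers lay between 11.78 and 11.99. The rises were 2.84 and 1.40 in Th1 cells, and 1.68, 0.97, 0.72 and 0.90 in Th17 cells. The means of 2.12 ± 1.02 (SD, n = 2) and 1.07 ± 0.42 (SD, n = 4) passed the test (limma, adjusted p = 0.000706 and 0.0032). The Th1 call was lost without number 1 (1.40, adjusted p = 0.0972 by limma) and in a model of the compared groups alone (adjusted p = 0.121 by limma). With the erythroid mean as a covariate the Th17 rise was 1.73 and not called (adjusted p = 0.104 by limma).

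Between the days the rise of Tnf differed by -0.14 in Th1 cells (95% interval -1.08 to 0.79) and by -0.67 in Th17 cells (95% interval -1.45 to 0.11), and neither was called (limma, adjusted p = 1.00 and 0.374). In restimulated cells the difference between days was 0.62 in Th1 cells and -0.26 in Th17 cells, and neither was called (limma, adjusted p = 0.224 and 0.594). The Th1 value rested on single arrays: it was 1.32 without restimulated number 2 of day 15 (adjusted p = 0.00733 by limma) and -0.09 without number 1. At rest Tnf was higher at day 15 than at day 5 by 0.76 in Th1 cells and 0.41 in Th17 cells without passing the test (limma, adjusted p = 0.110 and 0.332), although these groups did not overlap in either type. The Th1 difference was called with array weights (0.77, adjusted p = 0.0124 by limma) and in a model of those groups alone (0.76, adjusted p = 0.000754 by limma). Groups that do not overlap in the higher direction were found for 24.3% of all genes in that Th1 comparison and 11.6% in the Th17 comparison.

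The unstimulated Th17 cells of day 5 had 0.78 more Tnf than Th1 cells (95% interval 0.19 to 1.37), which was not called (adjusted p = 0.157 by limma). It was called in a model of those groups alone (adjusted p = 0.0123 by limma). It was also called with array weights (0.88, adjusted p = 0.00206 by limma). Myeloid markers, from cells that can make TNF, were higher on these unstimulated Th17 arrays of day 5, and with their mean as a covariate the Tnf difference there was 1.10 (adjusted p = 0.111 by limma). After restimulation the types differed in Tnf by 0.26 at day 5 and by -0.61 at day 15, neither of them called (limma, adjusted p = 0.896 and 0.297). The day 15 value was -1.32 without Th1 number 2 (adjusted p = 0.00632 by limma) and 0.093 without Th1 number 1. At day 0 Tnf was 11.44 and 13.50 in Th1 cells and 11.26 and 13.12 in Th17 cells, unstimulated and restimulated. The unstimulated day 0 values were above each unstimulated array after transfer.

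Lta, the lymphotoxin subunit, had small rises after 2 h of restimulation, and its levels were called different between types and days. In Th1 cells of day 5 it was 7.37, 7.16 and 6.84 unstimulated and 7.51, 7.08 and 7.39 restimulated, so the conditions overlapped. In Th17 cells of day 5 it was 7.60, 7.45 and 7.85 unstimulated and 8.02, 8.13 and 8.48 restimulated. The rises were 0.20 ± 0.32 (SD, n = 3) and 0.58 ± 0.14 (SD, n = 3), of which the Th17 value was called (limma, adjusted p = 0.566 and 0.0379). The Th17 call was lost in 9 of 21 alternative settings, one of them the myeloid mean as a covariate (0.48, adjusted p = 0.145 by limma), with values of 0.45 to 0.69 when arrays or numbers were left out, and in 7 of those 9 an array or a number was missing.

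At day 15 Lta was 7.27 and 7.43 in unstimulated Th1 cells and 8.53 and 7.78 after restimulation. In Th17 cells it was 8.30, 8.18, 8.05 and 8.07 unstimulated and 8.68, 8.23, 8.40 and 8.55 restimulated. The Th17 conditions overlapped through number 2. The rise of 0.81 ± 0.63 (SD, n = 2) in Th1 cells was called, and that of 0.31 ± 0.18 (SD, n = 4) in Th17 cells was not (limma, adjusted p = 0.0221 and 0.151). The Th1 call was lost in 6 of 18 alternative settings and came to 0.36 without number 1 (adjusted p = 0.654 by limma). The rise differed between days by 0.60 in Th1 cells and -0.27 in Th17 cells, neither of them called (limma, adjusted p = 1.00 and 0.568).

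The mean of Lta was higher in Th17 than in Th1 cells in each of 4 comparisons, and 2 of them were called. After restimulation at day 5 the difference was 0.89 (95% interval 0.52 to 1.25; limma, adjusted p = 0.00219), kept in 18 of 18 alternative settings, where 2.95% of all genes were called higher. At rest at day 15 it was 0.80 (adjusted p = 0.0104 by limma; 1.88% of all genes were called higher), a call that was lost without either of the 2 unstimulated Th1 arrays (adjusted p = 0.143 and 0.079 by limma). At rest at day 5 the difference was 0.51 and after restimulation at day 15 it was 0.31, and neither was called (limma, adjusted p = 0.128 and 0.442). The first was called with array weights (0.53, adjusted p = 0.00942 by limma).

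Lta was also higher at day 15 than at day 5 in restimulated Th1 cells, by 0.83 (adjusted p = 0.0037 by limma), a comparison in which 7.07% of all genes were called higher. Without restimulated number 1 of day 15 this was 0.46 (adjusted p = 0.147 by limma). In unstimulated Th17 cells the increase was 0.52 (adjusted p = 0.0425 by limma), with 4.37% of all genes called higher. The call was lost in 9 of 19 alternative settings. The difference was -0.68 with the erythroid covariate, whose values did not overlap between the days and cannot be separated from them. In each condition Lta was highest at day 0, at 8.63 and 9.89 in Th1 cells and 9.08 and 10.76 in Th17 cells, unstimulated and restimulated. The rises there were 1.26 and 1.69, against a highest value of 1.25 among the 12 numbers after transfer.

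**Figure D3:**
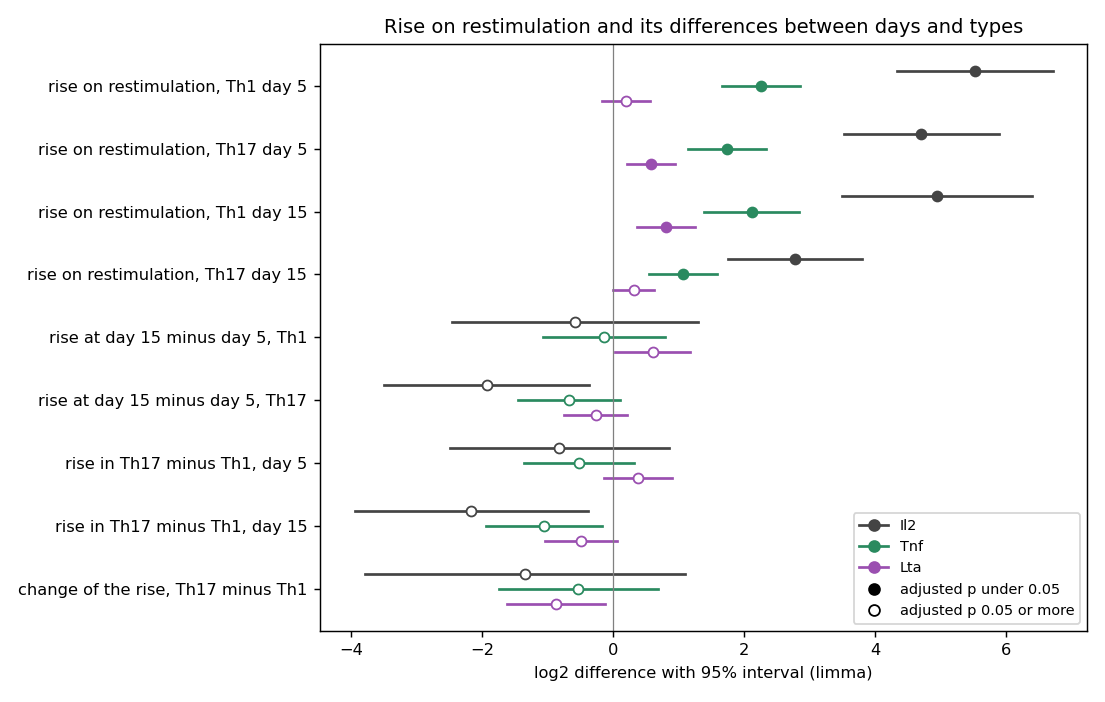
Log2 difference with its 95% interval (x axis) for Il2 (grey), Tnf (green) and Lta (purple): the rise on restimulation in each type and day, and the differences of that rise between days and types (rows). Filled points passed limma's test; the rises of Il2 and Tnf are filled in the 4 upper rows, and no difference between rises is.

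Counted over the 3 genes, 2 were called higher on restimulation in Th1 cells at day 5, against 4.07% of all genes, and 3 in Th17 cells at day 5, against 3.99%. At day 15 there were 3 in Th1 cells, against 2.65%, and 2 in Th17 cells, against 6.49%. The rise differed between Th17 and Th1 cells at day 15 by -2.17 for Il2 (95% interval -3.94 to -0.39), -1.05 for Tnf and -0.49 for Lta, and none was called (limma, adjusted p = 0.775, 0.778 and 0.795). No gene of 19938 (0%) was called in that comparison by limma, although 1216 genes, Il2 and Tnf among them, had an unadjusted p under 0.05. Without restimulated Th17 number 1 the Il2 difference was -2.95 (adjusted p = 0.0163 by limma). Without restimulated Th1 number 2 the Tnf difference was -1.75 (adjusted p = 0.0304 by limma), without restimulated Th1 number 1 it was -0.34 (adjusted p = 0.806 by limma), and without both arrays of that number -0.33. At day 5 the differences were -0.82, -0.52 and 0.38 in the same order, none of them called (adjusted p = 1.00 for each by limma), and 0.0201% of all genes were. The change of the rise between days differed between types by -1.35, -0.53 and -0.87, also without a call (adjusted p = 0.998 for each by limma; 0.00502% of all genes).

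In the order of group means, Il2 was highest in the restimulated groups of day 0, followed by restimulated Th1 cells of day 5, Th1 cells of day 15 and Th17 cells of day 5, with means of 11.70, 11.68 and 11.67 and overlapping ranges. Restimulated Th17 cells of day 15 came next, 2.11 lower, with overlapping ranges. For Tnf the restimulated groups after transfer overlapped each with its neighbour in the order, from 12.77 in Th1 cells of day 15 to 12.16 in Th1 cells of day 5. For Lta restimulated Th17 cells of day 15 and day 5, at 8.46 and 8.21, overlapped. Both means lay above that of restimulated Th1 cells of day 5, at 7.32.

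Other inducible cytokines rose with Il2. Of 17 measured, 10 were called higher and 0 lower in Th1 cells at day 5, 8 and 0 in Th17 cells at day 5, 9 and 1 in Th1 cells at day 15, and 7 and 2 in Th17 cells at day 15. The share of all genes called higher was 4.07%, 3.99%, 2.65% and 6.49% in that order, and the share called lower was 8.96%, 4.08%, 4.63% and 11.1%. The same shares stand beside the counts of rises in the gene lists that follow. Their median differences were 1.38, 1.26, 1.30 and 0.60, beside -0.01, 0.03, -0.02 and -0.08 over all genes. Il3, a growth factor of blood cell precursors, rose by 5.68, 4.91, 7.24 and 3.19 in the same order. Csf2, which encodes the myeloid growth factor GM-CSF, rose by 4.32, 3.78, 4.05 and 1.72. Ifng, the main Th1 cytokine, rose by 1.09, 1.26, 1.30 and 1.20, so the group means were similar. Its rises for single Th17 numbers ran from 0.69 to 2.07 at day 5 and from 0.73 to 1.78 at day 15. Restimulated Ifng was 11.95 to 12.13 in Th17 numbers 2 to 4 of day 15 and 13.23 in number 1. At day 5 it was 12.94 to 13.1 in restimulated Th17 cells.

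The spread between the Th17 numbers of day 15 recurred in these cytokines. Their mean difference was 1.63 for number 1 and 0.30, 0.66 and 0.43 for numbers 2 to 4, which is also the order of the Il2 rises. Among Th1 numbers of day 15 it was 2.39 and 1.31. The change of the rise from day 5 to day 15 was called lower in Th17 cells for 2 of the 17, against 0.732% of all genes: Il17a by -2.37 and Il17f by -2.05 (limma, adjusted p = 0.00246 and 5.76e-05). Both encode the cytokines that define Th17 cells. For Csf2 and Il3 that change was -2.07 and -1.72 without a call (limma, adjusted p = 0.206 and 0.432).

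Ligands of the TNF family moved in part. Of 13 measured, 6 were called higher and 1 lower in Th1 cells at day 5, 5 and 1 in Th17 cells at day 5, 5 and 0 in Th1 cells at day 15, and 2 and 0 in Th17 cells at day 15, with medians of 0.96, 0.87, 0.87 and 0.20. Tnfsf8, the ligand of CD30, rose by 2.51, 1.77, 1.73 and 0.80. Fasl, the death ligand, rose by 1.25, 1.10, 1.18 and 0.98. Ltb, the partner of lymphotoxin alpha and neighbour of Tnf, differed by -0.26, 0.15, -0.26 and -0.17, without a call in any of them (limma, adjusted p of 0.173 to 0.516).

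Among 13 receptors and signalling genes of TNF and lymphotoxin, 7, 7, 8 and 8 were called higher in the same order and 2, 1, 0 and 1 lower. Tnfaip3, an inhibitor of NF-kappaB signalling, rose by 1.09, 1.19, 1.48 and 2.05, and its rise was larger at day 15 than at day 5 in Th17 cells by 0.86 (adjusted p = 0.032 by limma), where 0.441% of all genes were called higher. Tnfrsf1b, a receptor for both ligands, rose by 0.62, 0.64, 0.76 and 0.53. Of 11 genes of the IL-2 receptor and its signalling, 4, 3, 3 and 1 were called higher and 0 lower. Il2ra rose by 1.17 in Th1 cells at day 5, 1.48 in Th1 cells at day 15 and 0.65 in Th17 cells at day 15, while its difference of 0.38 in Th17 cells at day 5 was not called (adjusted p = 0.30 by limma).

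Rises of transcription factors of these promoters and of early activation genes were called at both days. Of 14 transcription factors 8, 6, 8 and 9 were called higher, and of 10 early activation genes 9, 9, 8 and 8, with 0 lower in each. The mean rise of the early activation genes in Th17 cells was 1.71 to 2.03 at day 5, and at day 15 it was 2.34 for number 1 and 1.70, 1.52 and 1.26 for numbers 2 to 4. Number 1 was thus highest here too. Their levels in restimulated Th17 cells were called lower at day 15 than at day 5 for 4 of the 10 and higher for 0, with a median difference of -0.78, against 8.42% of all genes called lower and a median of -0.05. At rest 4 were called lower and 0 higher, with a median of -0.46, against 5.28% and 0.05. The mean rise of the 14 transcription factors was 0.60 to 0.73 for the Th17 numbers of day 5, and 1.06, 1.30, 1.31 and 1.23 for numbers 1 to 4 of day 15. Their mean level in unstimulated Th17 cells was 10.36 to 10.65 at day 5 and 9.82 to 10.46 at day 15. After restimulation it was 10.96 to 11.34 and 11.125 to 11.52, so the restimulated ranges overlapped and resting levels were mostly lower at day 15.

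Single early genes differed from the mean of their list. Nr4a1, an immediate early gene of receptor signalling, rose by 2.15 to 2.81 for the Th17 numbers of day 5 and by 2.78 to 3.17 for those of day 15. Cd69, an early surface marker, rose by 1.00 to 1.33 and by 1.45 to 2.06. For numbers 2 to 4 of day 15, which had the lowest Il2, the rises were 2.78 to 2.97 for Nr4a1 and 1.45 to 2.06 for Cd69. Restimulated levels of Nr4a1 in numbers 2 to 4 were 12.74 to 12.96, below the 13.04 to 13.15 of day 5, and number 1 had 13.31. Those of Cd69 were 12.04 to 12.48 in numbers 2 to 4 and 12.63 in number 1, against 12.46 to 12.69 at day 5. Unstimulated levels at day 5 were 10.23 to 11.0 for Nr4a1 and 11.18 to 11.47 for Cd69. At day 15 they were lower, at 9.95 to 10.14 and 10.06 to 10.75, so the larger rises did not come with higher restimulated Cd69. The change of the rise between days was not called for either gene (limma, adjusted p = 0.333 and 0.191).

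Egr2, a transcription factor downstream of NFAT, rose by 2.47 for Th17 number 1 of day 15 and by 1.62, 1.04 and 1.15 for numbers 2 to 4, against 1.91 to 2.58 at day 5. Il2ra rose by 1.25 for number 1 and 0.38, 0.79 and 0.18 for the others. Number 1 was first in both genes, as it was for Il2 and Tnf. The AP-1 genes Fos and Fosb had larger rises at day 15 than at day 5 in Th17 cells, by 2.37 and 2.81 (limma, adjusted p = 0.0438 and 0.0382). A larger rise alone does not show a higher restimulated level.

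**Figure D4:**
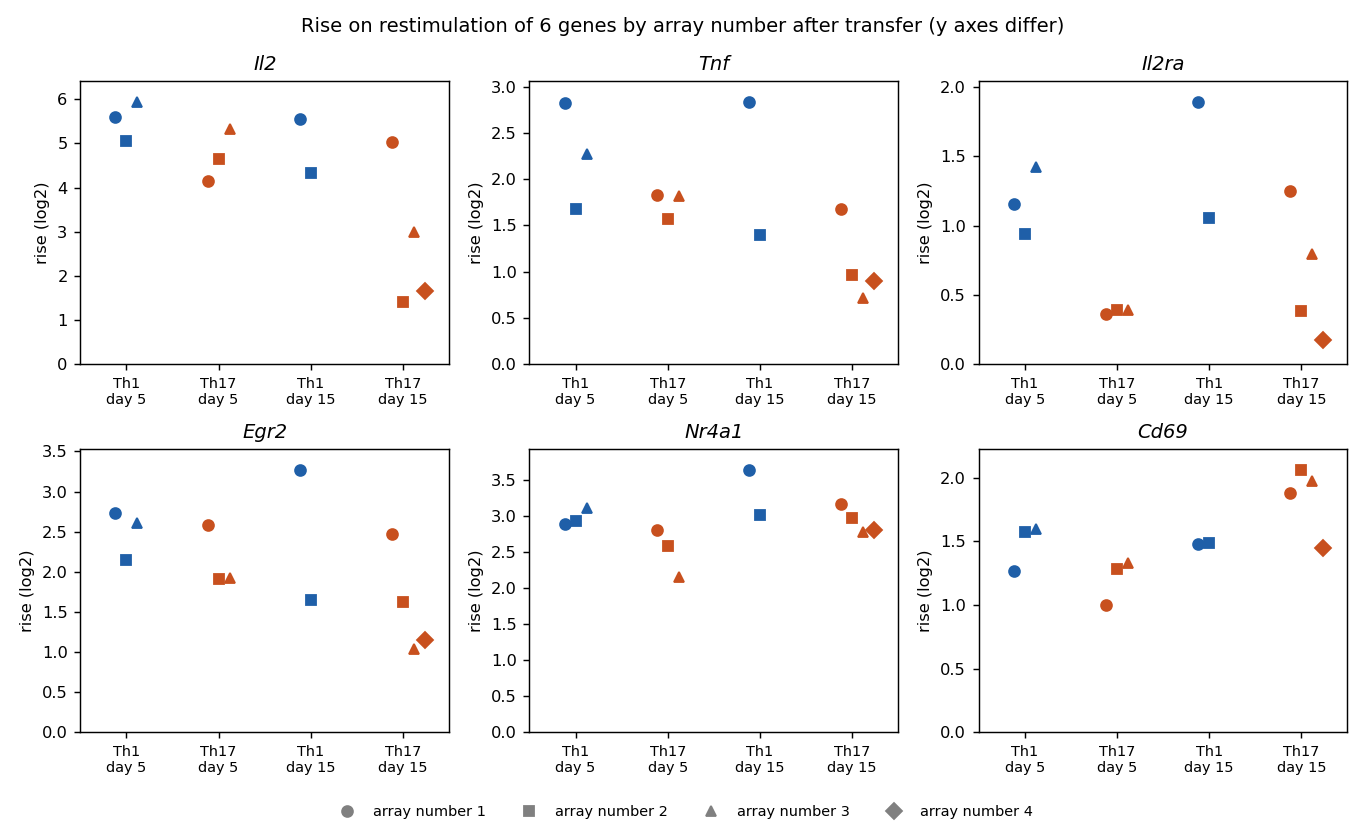
Restimulated minus unstimulated log2 difference (y axis, scales differ between panels) of Il2, Tnf, Il2ra, Egr2, Nr4a1 and Cd69 by type and day after transfer (x axis), blue Th1 and orange Th17, with the marker shape giving the array number. Th17 number 1 of day 15 stands highest of its group for the first 5 genes. In Th17 cells the rises of Nr4a1 and Cd69 at day 15 are no lower than the lowest rise of day 5.

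Repressors of Il2 and regulators of cytokine mRNA were called higher in part, where 4.07%, 3.99%, 2.65% and 6.49% of all genes were called higher in the same order. Of 7 repressors 1, 2, 2 and 3 were called higher and 0, 1, 0 and 0 lower, with Crem, a repressor that binds cAMP response elements, rising by 1.40, 1.44, 1.88 and 1.72. Of 13 proteins that bind AU-rich elements or stem-loops in cytokine mRNA, 4, 3, 2 and 4 were called higher and 0, 0, 0 and 1 lower. Zc3h12a, which encodes the nuclease Regnase-1, rose by 1.53, 1.40, 1.54 and 1.56. Zfp36, whose product speeds the decay of Tnf mRNA, differed by 0.08 in Th17 cells at day 5 and rose by 1.49 at day 15, a change of 1.42 (adjusted p = 0.0117 by limma). Of 14 genes of the T cell receptor and CD28 machinery 3, 1, 1 and 3 were called higher and 0, 1, 0 and 1 lower, all by under 1.

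Across the 14 rises, the genes most like Il2 by Pearson correlation were Tnfsf8 (0.95), Dio2 (0.93), Csf2, Abhd17c and Ptger2 (each 0.90). Those most like Tnf were Olr1 (0.93), Csf2 (0.92), Il6st (0.91), Ptpn11 and Rhbdf2 (each 0.90). Csf2 was in both sets. Those most like Lta were Pdlim5 (0.94), Abcf1 (0.92), Ahcyl2 and Ikzf5 (each 0.90) and Zfp790 (0.89). Tnf stood 94th in the order for Il2, with a correlation of 0.78, and Lta stood 7630th, with 0.26. Not each of these genes rose: Dio2 differed by 0.10, -0.01, 0.01 and -0.23 in the order used above, and Zfp790 by -0.11, -0.055, -0.01 and -0.29. Over the 12 numbers after transfer Tnfsf8 stood 2nd, Csf2 7th, Dio2 11th, Ptger2 18th and Abhd17c 23rd for Il2. Olr1 stood 1st for Tnf, and Pdlim5 2nd and Zfp790 35th for Lta. The points share arrays, types and days, and each gene was picked as the highest of 19938, so these are descriptions.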

How the data were processed

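Per the submitters' processing notes the authors deposited log2 values made by RMA in Affymetrix Expression Console, with versions, a genome build and the set of arrays normalised together not given in the sources used here. No further normalisation was applied. Among 35556 probe sets, 21789 with a single gene symbol were used, and 1621 with several and 12146 without one were not; for 999 genes with more than 1 probe set that of highest mean was taken. Arrays of a group correlated at 0.987 to 0.998.

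The 24 arrays after transfer (8 groups, 16 residual degrees of freedom) were fitted with a mean per group with limma 3.58.1 (lmFit, eBayes) in R 4.3.3, giving 17 comparisons, 5 of them interactions. Calls are genes with an adjusted p under 0.05 (Benjamini-Hochberg, 19938 genes). Day 0 has 1 array per group and is described without a test. The number of arrays limits the precision. The fits were tested on simulated data.

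Members and gene lists were chosen with earlier results of these data known. Named besides the members are, for each member, the 5 genes most correlated over the 14 rises, up to 3 called genes of a list with the largest change in a comparison, and list genes whose role is the subject of a sentence. Of 182 list entries 164 were measured.

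Alternatives were median centring, quantile normalization, cyclic loess, the mean of probe sets, genes above the median, a trend and robust prior, array weights, only the compared groups, a random block, a replicate block, and leaving out each array or number. A lone array left in a group is taken to vary like those of the other groups. Myeloid and erythroid means as covariates were added after seeing the data. At day 5, arrays of equal number deviated from their groups together, between conditions and also between the types when restimulated. The correlations were 0.159 to 0.214 between conditions in Th1 cells and 0.390 to 0.481 in Th17 cells. Between the types when restimulated they were 0.209 to 0.483. At day 15 the correlations between conditions were 0.124 in Th1 cells and -0.158 to 0.212 in Th17 cells. Between the types when restimulated at day 15 they were 0.655 for number 1 and 0.073 for number 2. Between day 5 and day 15 in restimulated Th1 cells they were 0.383 for number 1 and 0.648 for number 2. Pairing of portions is thus not shown at either day, and the rises per number assume that equal numbers belong together. The main fit used group means and no pairs.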

Additional observations from a re-analysis of the deposited data

How the results depend on the processing

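Of the 753 alternative values for the rises and their differences, 718 kept direction and side of the threshold. For the other settings than leaving out arrays, the exceptions were these. In a model of only the compared groups the rises of Tnf and Lta in Th1 cells at day 15 were 2.12 and 0.81 and lost their calls, as did 0.81 for Lta with array weights. The rise of Lta in Th17 cells at day 5 was not called with median centring (0.50) or the myeloid covariate (0.48). With the erythroid covariate the rises of Il2 and Tnf in Th17 cells at day 15 were 3.17 and 1.73 without a call, and the change of the rise turned to 0.23 for Tnf in Th1 cells and 0.29 for Lta in Th17 cells. With array weights that change was -2.38 for Il2 in Th17 cells and called. The cause of these changes was not tested.

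Leaving out arrays or numbers moved the change of the rise over -1.27 to 0.10 for Il2 and -0.86 to 0.58 for Tnf in Th1 cells, over -2.71 to -1.47 for Il2 in Th17 cells, and over -1.25 to 0.19 for Tnf in Th17 minus Th1. It moved the Th17 minus Th1 rise at day 15 over -2.95 to -1.48 for Il2 and -1.77 to -0.33 for Tnf, the rise in Th1 cells at day 15 over 1.40 to 2.84 for Tnf and 0.36 to 1.25 for Lta, and the rise of Lta in Th17 cells at day 5 over 0.45 to 0.69. Among levels the ranges that crossed 0 were, for Il2, -0.31 to 0.24 (Th17 minus Th1, restimulated, day 5), -0.029 to 0.11 (unstimulated, day 15), -0.70 to 0.67 (day 15 minus day 5, restimulated Th1) and -0.36 to 0.096 (unstimulated Th17). They were -1.32 to 0.093 for Tnf and -0.062 to 0.68 for Lta (Th17 minus Th1, restimulated, day 15), and -0.089 to 1.32 for Tnf (day 15 minus day 5, restimulated Th1).

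Other level differences that changed sign were those of Il2 for Th17 minus Th1 cells (-0.020 with quantile normalization, unstimulated, day 15; 0.15 with the myeloid covariate, restimulated, day 5), and for day 15 minus day 5 (0.013 with quantile normalization, 0.029 with cyclic loess, 0.021 with the myeloid covariate and 0.25 with the replicate block in restimulated Th1 cells; 0.042 with array weights in unstimulated Th17 cells). With the erythroid covariate the day 15 minus day 5 differences turned to -0.38, -0.84 and -1.22 for Il2, Tnf and Lta in unstimulated Th1 cells, -0.91 and -0.68 for Tnf and Lta in unstimulated Th17 cells, -0.61 and -0.28 for them in restimulated Th1 cells and -0.39 for Lta in restimulated Th17 cells.

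The replicate block changed no call of the rises or of their differences, with adjusted p of 0.000495 for Il2 in Th17 cells at day 15 and 0.181 for its change between days. Numbers did not pair the unstimulated arrays of day 5 (correlations of -0.126 to 0.068); there the block called Tnf (0.78, adjusted p = 0.00647 by limma) and moved the genes called from 724 to 1104, and elsewhere it moved the calls from 5 to 3 (change of the rise, Th1) and from 4 to 8 (Th17 minus Th1 rise, day 5).

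Counts over all genes ranged widely over the alternatives: for the rises, 2597 genes (567 to 5615) in Th1 and 1609 (295 to 2304) in Th17 cells at day 5, and 1453 (42 to 2647) and 3499 (250 to 6893) at day 15; for the change of the rise, 5 (0 to 89) and 234 (86 to 622), and between types 4 (2 to 12) at day 5, 0 (0 to 272) at day 15 and 1 (0 to 2) for the change. For Th17 minus Th1 levels they were 724 (353 to 2159) and 828 (283 to 1581) unstimulated and 793 (488 to 1176) and 1282 (337 to 2391) restimulated, at day 5 and day 15. For day 15 minus day 5 they were 3201 (716 to 5059) and 1923 (652 to 3279) unstimulated and 3132 (1050 to 3716) and 2685 (1283 to 3138) restimulated, in Th1 and Th17 cells. Median centring moved the median of all genes by -0.125 and -0.108 for day 15 minus day 5 in Th1 cells. Over the scalings the share of called genes that were higher moved from 31.2% to between 16.8% and 47.5% (rise, Th1, day 5), from 36.4% to between 23.2% and 49.9% (Th1, day 15), from 49.4% to as low as 24.9% (Th17, day 5), from 37.0% to between 14.9% and 55.8% (Th17, day 15) from 37.6% to as high as 59.9% (change of the rise, Th17), from 20.0% to 33.3% (change, Th1) and from 100% to 83.3% (Th17 minus Th1 rise, day 5). For Th17 minus Th1 levels it went from 63.5% to 46.3% and from 45.2% to 60.6% (unstimulated, day 5 and day 15) and from 74.3% to 60.1% (restimulated, day 5), and for day 15 minus day 5 from 45.7% to 23.3% (unstimulated Th1), 45.0% to 24.4% (restimulated Th1) and 37.5% to 60.9% (restimulated Th17).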
